A study of Mus musculus with 12 samples.

Results

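The 34 genes described here encode proteins of the peroxisome: 16 enzymes of peroxisomal oxidation and its accessory steps, 3 transporters of the peroxisomal membrane, 2 enzymes of ether lipid synthesis and 13 peroxins (Pex genes). They were chosen by name as a functional module, and all 34 were found among the 47643 genes of the deposited table by their symbols. All 34 also passed the filter on low counts, which left 17602 genes for testing. They were measured by bulk RNA-seq of intestine from male C57BL/6 mice, 7 to 8 weeks old at feeding, in 4 groups of 3 libraries. The groups were PparaΔIE mice on a high-fat diet (KO HFD), Pparafl/fl mice on the high-fat diet (WT HFD), PparaΔIE mice on chow (KO chow) and Pparafl/fl mice on chow (WT chow). The high-fat diet (HFD) is given in the labels as 60%, and feeding lasted 10 days on either diet. Pparafl/fl is the floxed control genotype, which carries Ppara alleles flanked by recombinase sites, and PparaΔIE is the usual notation for their deletion in the intestinal epithelium. The labels name neither the recombinase line nor the deleted exons nor the segment of intestine. Nothing in them ties the 3 libraries of a group to separate mice, so p-values rest on the spread among the libraries of a group, and this may be technical.

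Peroxisomes shorten very long, branched and bile acid precursor acyl chains by beta-oxidation, in which an oxidase, a multifunctional hydratase-dehydrogenase and a thiolase act in turn. The oxidase step makes hydrogen peroxide, which catalase destroys, and the shortened chains leave as carnitine esters or free acids for the mitochondria. Peroxins build the organelle: some insert membrane proteins, others import matrix enzymes that carry a targeting signal, and the Pex11 proteins act in division and elongation. PPARA, the product of Ppara, is a fatty acid-sensing nuclear receptor, and in rodent liver many genes of peroxisomal beta-oxidation are its classical targets. Enterocytes meet dietary fat directly and contain peroxisomes.

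Library totals ran from 33621040 to 53959405 expected counts. Levels are CPM (counts scaled by library size) with TMM factors, and log2 fold changes with their standard errors (SE) come from edgeR's quasi-likelihood fit of all 12 libraries, with p adjusted by Benjamini and Hochberg over 17602 genes and a threshold of 0.05. Markers of the epithelium summed to 14738 to 18830 CPM and markers of the distal ileum to 5086 to 6971 CPM over all libraries, while the colon genes Aqp8, Hoxb13 and Hoxd13 stayed below 1 CPM in every library. The biological coefficient of variation was 0.140 in KO HFD, 0.146 in WT HFD, 0.152 in KO chow and 0.0583 in WT chow, whose libraries were thus more alike. Lct and Fgf15, each from the marker list of a different region, split the KO chow group. The 5 distal ileum markers, Fgf15 among them, summed to 5131 to 5938 CPM in KO chow and 5828 to 6273 CPM in WT chow, which overlapped. Lct (lactase, made in the proximal small intestine) was at 0.453, 102 and 57.6 CPM in KO chow 1, 2 and 3 and at 2.24, 2.75 and 2.01 CPM in WT chow. Fgf15, an ileal hormone gene induced by bile acids, was at 15.1, 109 and 69.3 CPM in KO chow and 15.9, 16.7 and 12.1 CPM in WT chow. KO chow 1 was thus near the WT chow libraries in both genes, and KO chow 2 and 3 were not. KO chow 3 lay between the other libraries of its group for 13 of the 16 oxidation enzymes. Results are also given without WT chow 1 and KO chow 3, a pair chosen from earlier work on these data, where this changed a call. The values shown here do not single out WT chow 1, which lay between the others of its group for 7 of the 16 enzymes, as did WT chow 3. In bulk tissue, fewer cells of a type and less RNA per cell cannot be told apart.

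Ppara itself was measured first as a check of the labels. It was at 11.4, 11.1 and 17.3 CPM in KO HFD and 39.3, 36.6 and 33.7 CPM in WT HFD, and the groups did not overlap (log2 fold change -1.46, SE 0.21, adjusted p = 0.031 by edgeR). On chow it was at 8.42, 15.6 and 13 CPM in KO and 19.2, 18.1 and 22 CPM in WT, again without overlap, but the difference did not pass the test (log2 fold change -0.68, SE 0.21, adjusted p = 0.25). KO HFD 3 held the highest Ppara level of its group. Reads of undeleted exons and of non-epithelial cells are part of these gene counts. The HFD call was lost without any of 8 libraries (KO HFD 1 or 2, WT HFD 1 or 2, KO chow 3 or any WT chow library, adjusted p = 0.056 to 0.14), with the log2 fold change between -1.71 and -1.35. Without WT chow 1 and KO chow 3 together its adjusted p was 0.14, and with the smooth muscle score as a covariate 0.058. Ppara was also called higher on HFD than on chow in WT mice (mean 36.6 and 19.7 CPM), with the log2 fold change between 0.81 and 0.97 over the left-out libraries. That diet call was lost in 7 of 21 alternatives, and with the proximal score as a covariate the change was 0.38 (adjusted p = 0.51 by edgeR).

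Promoter sequence is shown for 3 of the members whose transcripts changed with diet in both genotypes, and for Acox2, which was added because its window holds the searched motif. They are 300-base windows of RefSeq (GRCm38.p6), from 250 bases before to 50 after an annotated transcript start, written 5′ to 3′ on the gene's strand. Capitals mark a DR1 match, the PPAR type of element: a direct repeat of AGGTCA with 1 base between the copies, searched on both strands with at most 2 mismatches over the 12 defined letters. Acaa1b lies at chr9:119157044-119157343 (minus strand), Cat at chr2:103485104-103485403 (minus strand), Pex11a at chr7:79743082-79743381 (minus strand) and Acox2 at chr14:8258790-8259089 (minus strand), the last being 1 of 2 windows listed for that gene.
Acaa1b: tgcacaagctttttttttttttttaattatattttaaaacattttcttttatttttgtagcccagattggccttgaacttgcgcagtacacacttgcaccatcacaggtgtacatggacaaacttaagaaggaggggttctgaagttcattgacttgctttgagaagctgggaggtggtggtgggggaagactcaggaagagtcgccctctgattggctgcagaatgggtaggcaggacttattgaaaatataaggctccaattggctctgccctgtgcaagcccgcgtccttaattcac
Cat: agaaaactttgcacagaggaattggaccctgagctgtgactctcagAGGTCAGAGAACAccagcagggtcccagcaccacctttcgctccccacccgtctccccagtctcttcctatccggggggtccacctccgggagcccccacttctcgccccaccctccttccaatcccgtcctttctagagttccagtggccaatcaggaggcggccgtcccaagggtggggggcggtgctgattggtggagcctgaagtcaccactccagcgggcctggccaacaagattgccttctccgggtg
Pex11a: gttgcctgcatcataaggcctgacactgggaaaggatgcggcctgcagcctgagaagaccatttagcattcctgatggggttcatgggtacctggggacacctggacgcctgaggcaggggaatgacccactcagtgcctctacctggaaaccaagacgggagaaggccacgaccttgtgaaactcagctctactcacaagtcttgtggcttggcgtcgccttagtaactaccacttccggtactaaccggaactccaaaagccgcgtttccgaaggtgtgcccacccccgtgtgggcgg
Acox2: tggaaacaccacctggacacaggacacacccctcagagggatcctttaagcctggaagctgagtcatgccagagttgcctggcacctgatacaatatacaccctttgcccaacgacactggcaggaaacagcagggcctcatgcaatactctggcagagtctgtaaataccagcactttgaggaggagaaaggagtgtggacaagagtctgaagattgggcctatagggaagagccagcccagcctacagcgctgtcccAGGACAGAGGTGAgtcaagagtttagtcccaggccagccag
The match in Cat covers bases 47 to 59 of its window and that in Acox2 bases 260 to 272. Of 29 members with such a window, these 2 (6.9%) held a match in any of their windows, and of all 27025 genes listed there the share was 4.4%. The matches were in 2 of 14 oxidation enzymes and 0 of 11 peroxins with a window. The best stretch had 4 mismatches in Acaa1b and 5 in Pex11a, so that these letters were not in their windows at the chosen limit. A match is a description of letters, and elements farther away or inside introns were not searched. Hsd17b4, Abcd2, Amacr, Pex2 and Pex19 had no window here.

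Per length of annotated exon, the oxidation enzymes were mostly the more abundant transcripts. Their median level was 18.6 CPM per kb over all 12 libraries, and that of the peroxins 5.88 CPM per kb. Scp2, which encodes the thiolase of branched chains together with a sterol carrier protein, had the highest level of all members at 106 CPM per kb. It was followed by Phyh, the phytanoyl-CoA hydroxylase of alpha-oxidation, at 63.5 CPM per kb and by catalase, Cat, at 51.0 CPM per kb. Among the peroxins the order ran from Pex19, the chaperone of new membrane proteins, at 21.5 CPM per kb to Pex7, the receptor for a second class of targeting signal, at 1.77 CPM per kb. Abcd2, a transporter of very long chain acyl-CoA, was the lowest member at 0.0472 CPM per kb and 6 to 14 counts per library, and it passed no test, at a depth that could not show modest differences. Abcd3, the transporter of branched and dicarboxylic acyl-CoA, stood at 43.5 CPM per kb.

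**Figure D1:**
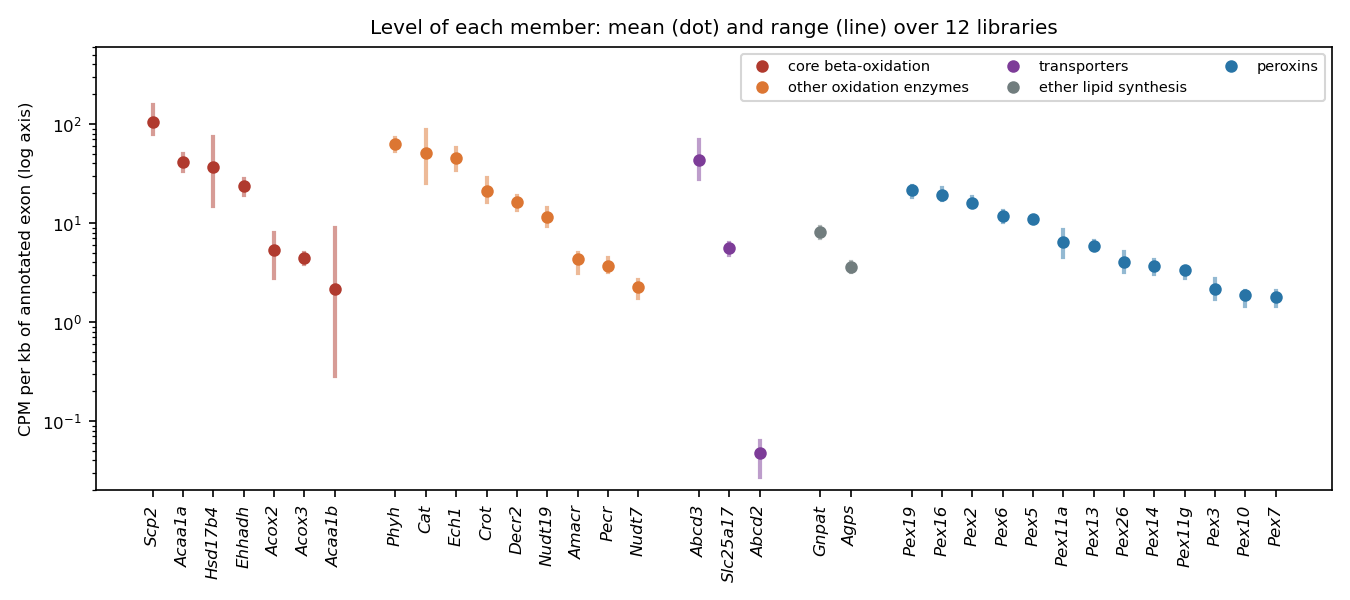
Level of each member in CPM per kb of annotated exon on a log axis, with the mean (dot) and the range (line) over 12 libraries, grouped by role. Scp2 is highest at 106 CPM per kb and Abcd2 lowest at 0.0472 CPM per kb, and the line of Acaa1b is the longest.

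The enzymes also varied more between libraries. The ratio of the highest to the lowest library had a median of 1.54 over the oxidation enzymes and 1.32 over the peroxins. Acaa1b spanned a ratio of 31.2 and Cat 3.47, whereas Acox3, a branched-chain acyl-CoA oxidase, spanned 1.27. Among the peroxins Pex11a had the widest ratio at 1.85 and Pex5, the import receptor for the common C-terminal signal, the narrowest at 1.18.

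**Figure D2:**
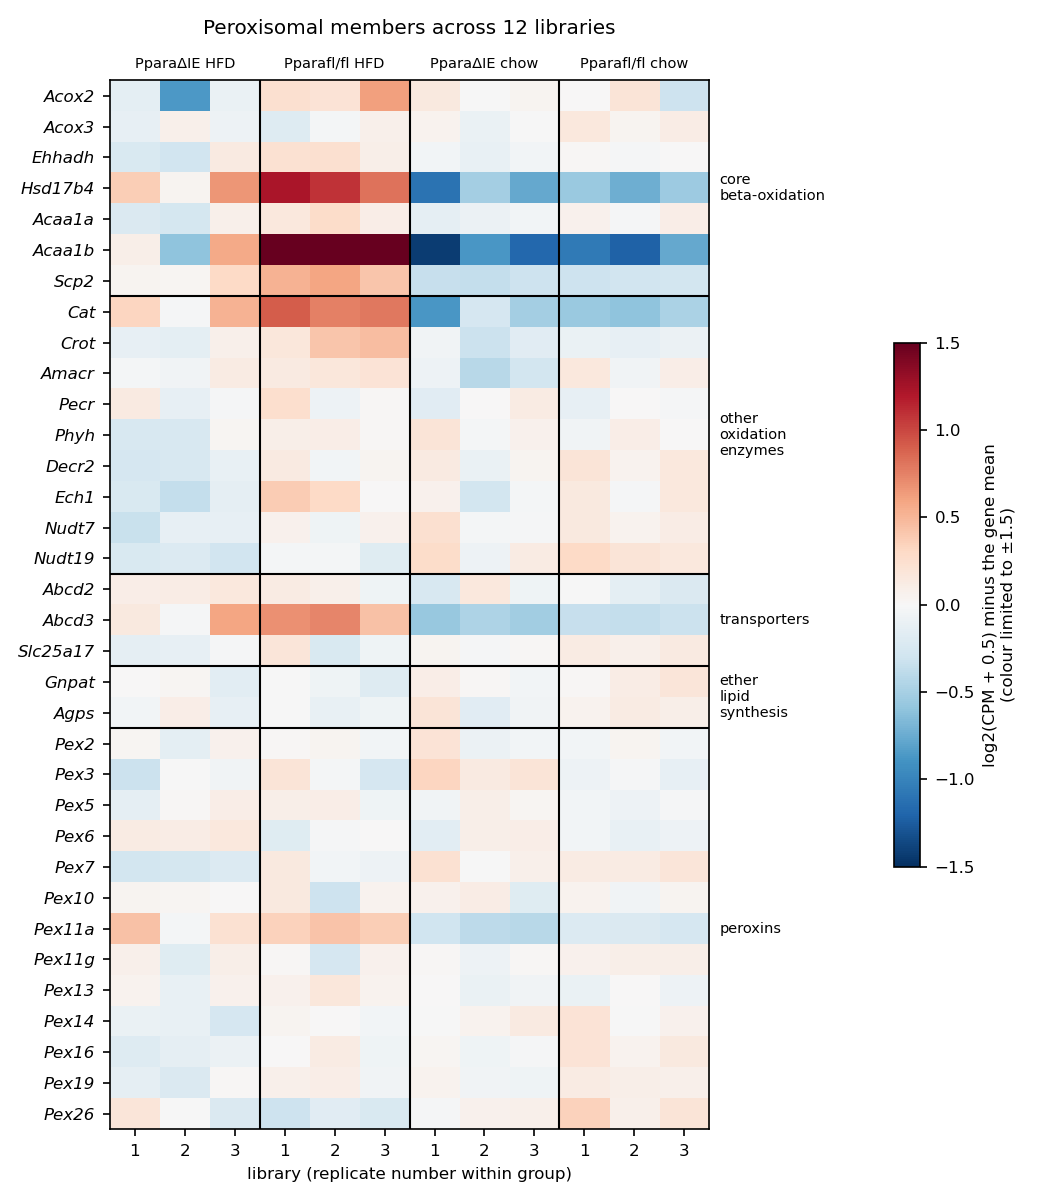
Log2(CPM + 0.5) of each member minus its mean over the 12 libraries, by role (rows) and library (columns), with colour limited to ±1.5. Acaa1b, Hsd17b4, Cat, Scp2, Abcd3 and Pex11a are red in the 3 WT HFD libraries and blue in the 6 chow libraries, while most peroxin rows stay pale.

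The comparison of HFD with chow in WT mice asks how the module responds to dietary fat in the control genotype. Of the 34 members 7 rose, 2 fell and 25 did not pass the test. The risers were 3 core enzymes of beta-oxidation (Acaa1b, Hsd17b4 and Scp2), Cat, Crot, Abcd3 and Pex11a, and the genes that fell were Nudt19 and Pex26. Over all tested genes 6.80% were called higher and 6.57% lower in this comparison.

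Acaa1b, which encodes a peroxisomal thiolase (chr9:119148023-119157093 in mm10, GENCODE vM21), was at 17.4, 13.1 and 7.85 CPM in WT HFD and 0.867, 0.724 and 1.17 CPM in WT chow. The lowest HFD library lay far above the highest chow library, and the log2 fold change of 3.77 (SE 0.39, adjusted p = 0.00034 by edgeR) was the largest of the module. Acaa1a, a close paralog, was by contrast at 200, 218 and 193 CPM in WT HFD and 188, 177 and 192 CPM in WT chow (log2 fold change 0.13, SE 0.09, adjusted p = 0.35). Of 50-base stretches of Acaa1b transcripts 30.5% also occur in Acaa1a, so the counting could move reads between the genes. Acaa1b made up 8.03%, 5.68% and 3.92% of the summed CPM of both genes in WT HFD and 0.459%, 0.408% and 0.609% in WT chow.

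Hsd17b4, the bifunctional hydratase-dehydrogenase of branched and very long chains (chr18:50128201-50196269), was at 252, 230 and 190 CPM in WT HFD and 73.3, 64.7 and 74.0 CPM in WT chow. This was a 3.17-fold difference without overlap (log2 fold change 1.66, SE 0.18, adjusted p = 0.00034 by edgeR). Ehhadh, the other bifunctional enzyme of the pathway, was at 81.4, 82.4 and 73.8 CPM in WT HFD and 70.4, 68.8 and 70.0 CPM in WT chow, and its log2 fold change of 0.18 (SE 0.09) did not pass (adjusted p = 0.21). The groups of Ehhadh did not overlap, but the shift was small beside that of Hsd17b4.

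Scp2 (chr4:108043839-108144998) was at 515, 540 and 477 CPM in WT HFD and 288, 293 and 296 CPM in WT chow (log2 fold change 0.80, SE 0.08, adjusted p = 0.0002 by edgeR). Of its 50-base stretches 29.7% are shared with the pseudogene Scp2-ps2, which held only 48 to 202 counts per library. Cat, which breaks down the hydrogen peroxide made by the oxidases (chr2:103453849-103485160), was at 230, 206 and 211 CPM in WT HFD and 82.9, 80.2 and 87.4 CPM in WT chow. The HFD libraries of Cat lay far above the chow libraries of that genotype (log2 fold change 1.37, SE 0.15, adjusted p = 0.0003). Crot, the carnitine octanoyltransferase that prepares medium chains for export (chr5:8966033-8997324), was at 126, 150 and 155 CPM in WT HFD and 105, 103 and 106 CPM in WT chow (log2 fold change 0.46, SE 0.09, adjusted p = 0.0064).

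Abcd3 (chr3:121758774-121815302) was at 436, 451 and 368 CPM in WT HFD and 213, 212 and 217 CPM in WT chow, close to a doubling (log2 fold change 0.97, SE 0.13, adjusted p = 0.00053 by edgeR). Among the peroxins only Pex11a, a protein of peroxisome elongation and proliferation (chr7:79735957-79743131), rose in this comparison. It was at 25.1, 26.7 and 25.7 CPM in WT HFD and 17.1, 16.9 and 16.5 CPM in WT chow, and the groups lay well apart (log2 fold change 0.62, SE 0.10, adjusted p = 0.002). Its relative Pex11g was at 11.6, 9.53 and 12 CPM in WT HFD and 12, 12.2 and 12.2 CPM in WT chow, with a log2 fold change of -0.14 that did not pass (adjusted p = 0.43).

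Nudt19, a peroxisomal hydrolase of coenzyme A and its esters (chr7:35547185-35556304), was at 29.8, 29.8 and 26.9 CPM in WT HFD and 37.6, 34.8 and 34.1 CPM in WT chow. The groups did not overlap, and the log2 fold change was -0.30 (SE 0.09, adjusted p = 0.035 by edgeR). Of its transcript stretches 33.3% occur on the opposite strand in B230322F03Rik, which held 3 to 27 counts per library. Pex26, the membrane anchor of the ATPase complex that recycles the import receptor (chr6:121183667-121198837), was at 18, 20 and 19.2 CPM in WT HFD and 28.7, 23.8 and 25.9 CPM in WT chow (log2 fold change -0.45, SE 0.10, adjusted p = 0.01). Nudt19 lost its call without WT HFD 2 or 3, KO chow 3 or any WT chow library (adjusted p = 0.052 to 0.14), and Pex26 without WT chow 1 (adjusted p = 0.06). Pex6, an ATPase of that complex, showed a log2 change of 0.01 (adjusted p = 0.94).

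The remaining 25 members had log2 fold changes from -0.19 for Gnpat, the acyltransferase that starts ether lipid synthesis, to 0.51 for the barely detected Abcd2. Acox2, the oxidase of bile acid precursors, was at 0.40 (SE 0.19, adjusted p = 0.19). The median log2 fold change was 0.40 over the 7 core enzymes, 0.10 over the 9 other oxidation enzymes and -0.04 over the 13 peroxins, and 0.01 over all genes tested. HFD libraries lay wholly above chow libraries for 8 of 16 oxidation enzymes and 2 of 13 peroxins, and wholly below for 1 of 16 and 1 of 13. Over all genes these shares were 19.3% higher and 18.6% lower. The marker sum of the proximal small intestine was 92.2 to 279 CPM in WT HFD and 19.2 to 20.0 CPM in WT chow, with Pdx1 at or near 0 throughout, and with that score as a covariate 6 of the 7 risers were still called while Abcd3 (log2 fold change 0.86, adjusted p = 0.055), Nudt19 and Pex26 were not. Without WT chow 1 and KO chow 3, Crot, Nudt19 and Pex26 lost their calls (adjusted p = 0.066, 0.19 and 0.095). These genes also lost their calls with the smooth muscle score as a covariate (adjusted p = 0.062, 0.26 and 0.062 by edgeR).

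**Figure D3:**
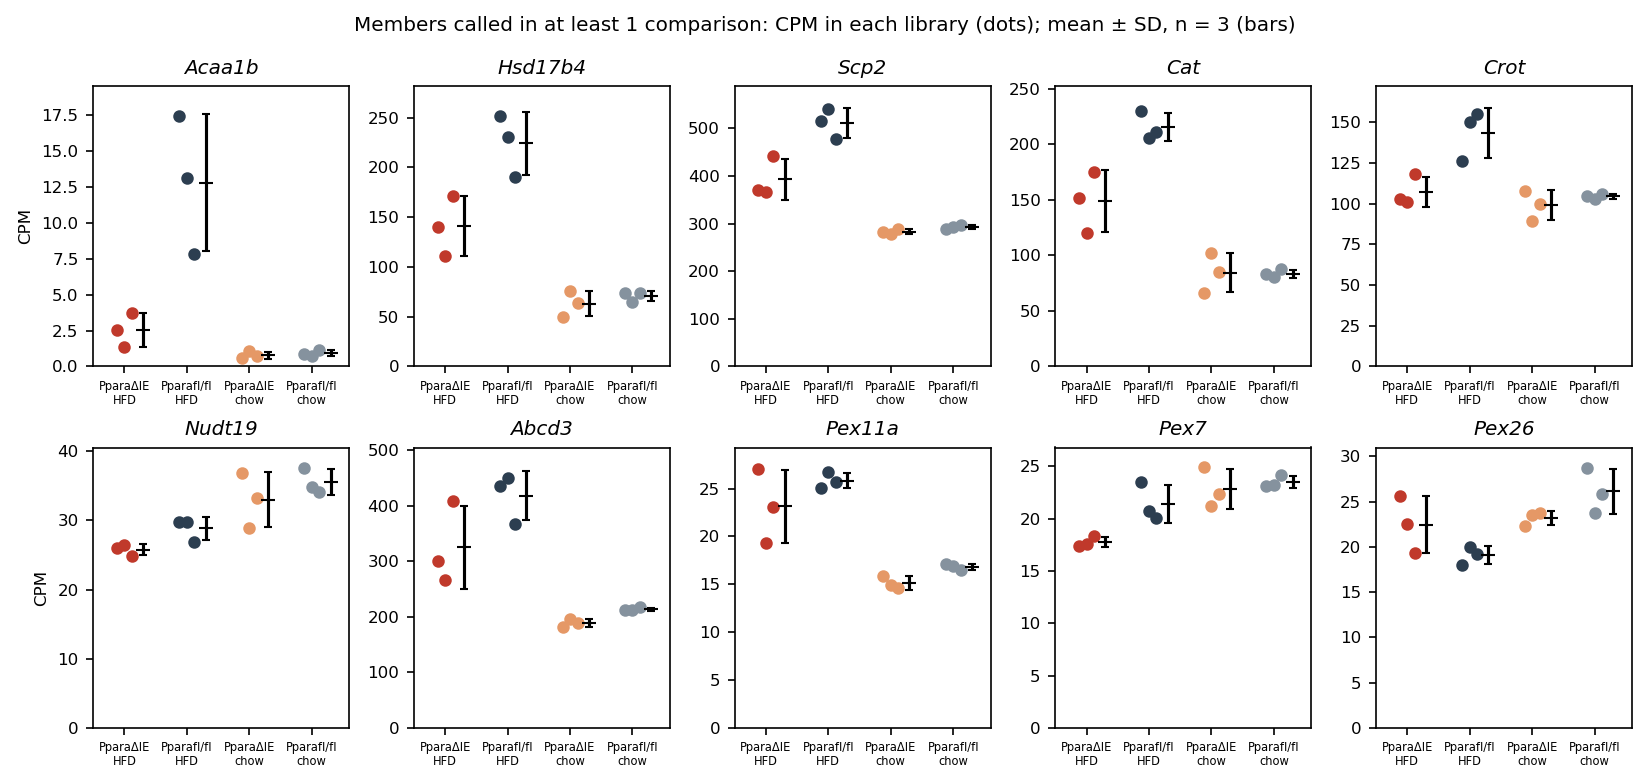
CPM of the 10 members called in at least 1 comparison, with each library as a dot and the mean ± SD (n = 3) as a bar, on axes that start at 0. For Hsd17b4, Scp2, Cat and Abcd3 every HFD library of both genotypes lies above all 6 chow libraries.

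In KO mice the same diet comparison gave 6 members that rose, 2 that fell and 26 that did not pass. Those that rose were Hsd17b4, Acaa1b, Scp2, Cat, Abcd3 and Pex11a, and Nudt19 and Pex7 fell. Over all genes 3.44% were called higher and 4.76% lower. The calls shared 7 members with those made in WT mice in the same direction, which is 87.5% of the 8 calls in KO mice and 77.8% of the 9 in WT mice. The overlap of calls over all genes was not counted, so these shares cannot be read as particular to the module.

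Hsd17b4 was at 140, 111 and 171 CPM in KO HFD and 50, 75.7 and 63.4 CPM in KO chow (log2 fold change 1.15, SE 0.18, adjusted p = 0.0037 by edgeR). Abcd3 was at 300, 267 and 409 CPM in KO HFD and 182, 197 and 189 CPM in KO chow (log2 fold change 0.78, SE 0.13, adjusted p = 0.0031). For both genes the HFD group lay wholly above the chow group, and both calls held without WT chow 1 and KO chow 3. Pex11a was at 27.0, 19.3 and 23.1 CPM in KO HFD and 15.9, 14.9 and 14.6 CPM in KO chow, a log2 change of 0.61 (SE 0.10, adjusted p = 0.0035) beside the 0.62 of WT mice.

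Cat was at 152, 120 and 175 CPM in KO HFD and 66.2, 102 and 85.3 CPM in KO chow (log2 fold change 0.82, SE 0.15, adjusted p = 0.0069 by edgeR). Scp2 was at 370, 366 and 442 CPM in KO HFD and 283, 279 and 288 CPM in KO chow (log2 fold change 0.47, SE 0.08, adjusted p = 0.0054). Neither gene's groups overlapped. Acaa1b, at 2.53, 1.38 and 3.73 CPM in KO HFD and 0.560, 1.05 and 0.755 CPM in KO chow, showed a log2 change of 1.68 (SE 0.42, adjusted p = 0.034), and this call was lost without any of 5 libraries (KO HFD 1, KO HFD 3, KO chow 1, KO chow 3 or WT chow 1, adjusted p = 0.056 to 0.15).

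Pex7 (chr10:19853900-19907689) was at 17.4, 17.6 and 18.3 CPM in KO HFD and 24.9, 21.2 and 22.4 CPM in KO chow (log2 fold change -0.36, SE 0.08, adjusted p = 0.018 by edgeR). Nudt19 was at 26.0, 26.4 and 24.9 CPM in KO HFD and 36.9, 28.9 and 33.2 CPM in KO chow (log2 fold change -0.36, SE 0.09, adjusted p = 0.024). Both genes were lower in every HFD library than in any chow library of this genotype. The Pex7 call was lost without KO HFD 1 or 2 or KO chow 1 or 3 (adjusted p = 0.051 to 0.06), and the Nudt19 call without any KO HFD library, KO chow 1 or KO chow 3 (adjusted p = 0.055 to 0.076). Crot, which rose in WT mice, was at 103, 101 and 118 CPM in KO HFD and 108, 89.7 and 100 CPM in KO chow, where the groups overlapped (log2 fold change 0.12, adjusted p = 0.48). Pex26 likewise overlapped, at 25.6, 22.5 and 19.3 CPM in KO HFD and 22.3, 23.5 and 23.7 CPM in KO chow (log2 fold change -0.04, adjusted p = 0.84).

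The median log2 fold change in KO mice was -0.02 over the core enzymes, -0.16 over the other oxidation enzymes and -0.04 over the peroxins, and 0.01 over all genes. HFD libraries lay wholly above chow libraries for 5 of 16 oxidation enzymes and wholly below for 4 of 16, and for the peroxins these counts were 2 and 4 of 13. The shares over all genes were 12.7% higher and 13.1% lower. Without WT chow 1 and KO chow 3 only Hsd17b4 and Abcd3 were called, while Cat, Pex11a and Scp2 had adjusted p = 0.063, 0.057 and 0.075. Markers of smooth muscle summed to 99.8 to 130 CPM in KO HFD and 53.8 to 70.5 CPM in KO chow. With that score as a covariate Hsd17b4, Scp2, Cat, Abcd3 and Pex11a were still called higher and Acaa1b was not (adjusted p = 0.19 by edgeR). In that fit 5 members (Decr2, Ech1, Nudt19, Pex3 and Pex7) were called lower, and its share of all genes called is not given here. Markers of the proximal small intestine summed to 68.5 to 163 CPM in KO HFD and 19.9 to 129 CPM in KO chow, and with that score Acaa1b, Nudt19 and Pex7 lost their calls (adjusted p = 0.076, 0.077 and 0.053).

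**Figure D4:**
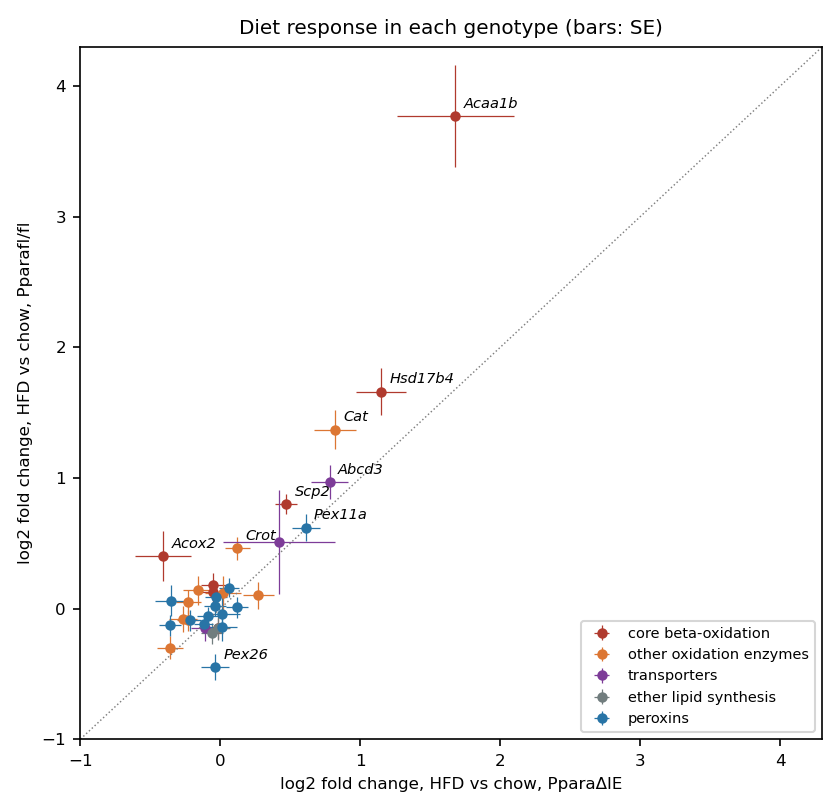
Log2 fold change of HFD against chow in PparaΔIE (x axis) and in Pparafl/fl (y axis) for the 34 members, coloured by role, with bars of 1 SE and a dotted line of equal response. Acaa1b, Hsd17b4, Cat, Scp2 and Crot lie above the line, Pex11a lies on it and most peroxins gather near 0.

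The genotype comparison on HFD, KO against WT, bears on the part of epithelial PPARA under a fat load. Acaa1b was the only member called, and it fell. It was at 2.53, 1.38 and 3.73 CPM in KO HFD and 17.4, 13.1 and 7.85 CPM in WT HFD, a 5.05-fold lower level without overlap (log2 fold change -2.34, SE 0.36, adjusted p = 0.031 by edgeR). The other 33 members did not pass. Over all genes 0.102% were called higher and 0.187% lower, so few calls were made anywhere in this comparison. Together Acaa1a and Acaa1b summed to 156, 150 and 193 CPM in KO HFD and 217, 231 and 200 CPM in WT HFD, which did not overlap either. The Acaa1b call was lost without any of 8 of the 12 libraries (KO HFD 1 or 2, WT HFD 1 or 2, KO chow 3 or any WT chow library, adjusted p = 0.056 to 0.12), although its log2 fold change stayed between -2.72 and -2.04.

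Most oxidation enzymes were nevertheless at lower levels in every KO HFD library. KO HFD libraries lay wholly below WT HFD libraries for 12 of 16 oxidation enzymes and wholly above for 0, while among the 13 peroxins 3 were wholly below and 1 wholly above. Over all genes the groups did not overlap for 8.70% of genes on the lower side and 9.27% on the higher side. The median log2 fold change was -0.38 over the core enzymes, -0.23 over the other oxidation enzymes and -0.09 over the peroxins, and -0.00 over all genes. These enzymes share the same 6 libraries and are not independent of one another.

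Scp2 was at 370, 366 and 442 CPM in KO HFD and 515, 540 and 477 CPM in WT HFD (log2 fold change -0.38, SE 0.08, adjusted p = 0.087 by edgeR). Crot was at 103, 101 and 118 CPM in KO HFD and 126, 150 and 155 CPM in WT HFD (log2 fold change -0.42, SE 0.09, adjusted p = 0.087). Ech1, an enoyl-CoA isomerase found in peroxisomes and mitochondria, was at 86.3, 78.8 and 92.4 CPM in KO HFD and 132, 125 and 102 CPM in WT HFD (log2 fold change -0.48, SE 0.11, adjusted p = 0.087). None of these groups overlapped, and none passed.

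Hsd17b4 was at 140, 111 and 171 CPM in KO HFD and 252, 230 and 190 CPM in WT HFD (log2 fold change -0.67, SE 0.17, adjusted p = 0.15 by edgeR). Cat was at 152, 120 and 175 CPM in KO HFD and 230, 206 and 211 CPM in WT HFD (log2 fold change -0.53, SE 0.15, adjusted p = 0.17). For both genes KO HFD 3 was the library nearest to the WT levels. That library held the highest value of its group for 12 of the 16 oxidation enzymes and 8 of the 13 peroxins, and, as given above, the highest Ppara. Without it 7 members were called lower (Ehhadh, Hsd17b4, Acaa1a, Acaa1b, Scp2, Crot and Abcd3). DESeq2 on all libraries called 8 lower, all oxidation enzymes (Acox2, Hsd17b4, Acaa1a, Acaa1b, Scp2, Cat, Crot and Ech1). The shares of all genes called under these settings are not given here, so the counts cannot be read as particular to the module.

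The peroxins ranged from -0.27 for Pex7 (SE 0.08, adjusted p = 0.21 by edgeR) to 0.24 for Pex26 (SE 0.10, adjusted p = 0.34). Pex6 was the peroxin wholly above, at 48.5, 48.3 and 50 CPM in KO HFD and 39.3, 43.9 and 44.8 CPM in WT HFD (log2 fold change 0.20, SE 0.08, adjusted p = 0.3). Pex5, Pex2 and Pex13 had log2 fold changes of -0.05, -0.02 and -0.09, each with SE 0.07 or 0.08. The ether lipid genes Gnpat and Agps were at 0.05 and 0.04, and Acox3 was at 0.00 (SE 0.08). Abcd3 showed a log2 change of -0.36 (SE 0.13, adjusted p = 0.25) and overlapped between genotypes.

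The summed markers of smooth muscle did not overlap between these groups, while those of the epithelium did. Markers of smooth muscle (10 genes, none at 0) summed to 99.8 to 130 CPM in KO HFD and 38.7 to 77.6 CPM in WT HFD, and epithelial markers to 14869 to 18830 CPM in KO HFD and 14738 to 17991 CPM in WT HFD. With the smooth muscle score as a covariate 4 members were called: Acaa1b, Ech1 and Pex7 lower and Pex6 higher. The share of all genes called with that score is not given here.

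**Figure D5:**
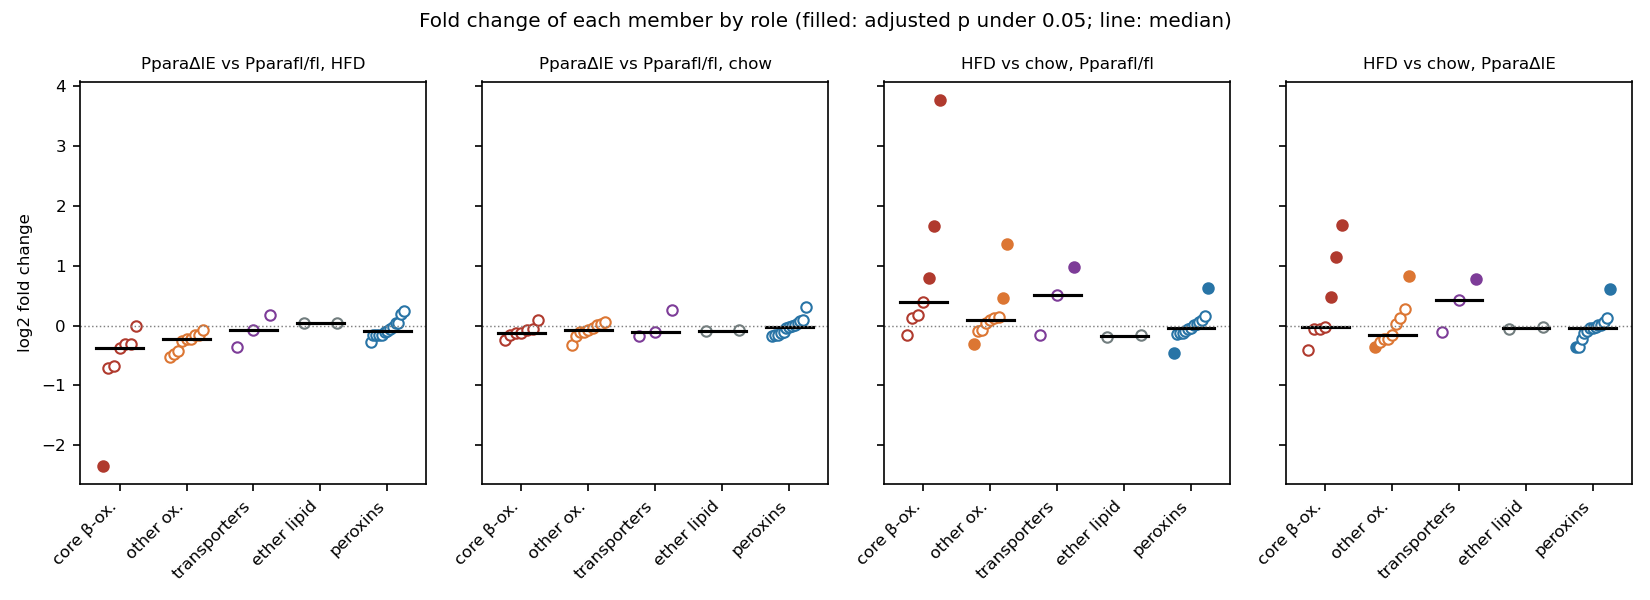
Log2 fold change of each member in 4 comparisons, by role, with filled circles for adjusted p under 0.05 and a line at the median. On HFD 6 of the 7 core enzymes sit below 0 in PparaΔIE against Pparafl/fl, with Acox3 at 0.00 and a median of -0.38, and the peroxins have a median of -0.09.

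On chow the genotypes differed little. None of the 34 members was called by edgeR or by DESeq2. By edgeR 3 of them had an unadjusted p under 0.05, as did 2293 of all 17602 genes tested. Over all genes 0.0795% were called higher and 0.0454% lower. The 3 members with the smallest p were Amacr, Pex3 and Pex16. Amacr, the racemase that prepares branched chains for oxidation, was at 10.5, 8.22 and 9.12 CPM in KO chow and 12.5, 10.7 and 11.9 CPM in WT chow (log2 fold change -0.33, SE 0.10, adjusted p = 0.23), with the groups nearly touching. Pex3, the docking factor for membrane proteins, was at 12.9, 11.3 and 11.8 CPM in KO chow and 9.69, 10.1 and 9.35 CPM in WT chow, wholly above (log2 fold change 0.31, SE 0.12, adjusted p = 0.32). Pex16, which acts with it, was at 35.1, 32.8 and 34.1 CPM in KO chow and 39.7, 35.7 and 38.0 CPM in WT chow, wholly below (log2 fold change -0.15, SE 0.07, adjusted p = 0.38).

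Of the members that changed with diet, none was called between genotypes on chow. Acaa1b was at 0.560, 1.05 and 0.755 CPM in KO chow and 0.867, 0.724 and 1.17 CPM in WT chow (log2 fold change -0.24, SE 0.45), and Cat showed a log2 change of 0.01 (SE 0.15). Scp2 was at -0.05 (SE 0.08) and Hsd17b4 at -0.16 (SE 0.17). Abcd3, at 182, 197 and 189 CPM in KO chow and 213, 212 and 217 CPM in WT chow, was wholly below (log2 fold change -0.18, SE 0.13, adjusted p = 0.56 by edgeR). Pex11a was also wholly below (log2 fold change -0.15, SE 0.10), as was Pex26 (log2 fold change -0.17, SE 0.10). The median log2 fold change was -0.13 over the core enzymes, -0.07 over the other oxidation enzymes and -0.03 over the peroxins, and 0.00 over all genes. KO chow libraries lay wholly below WT chow libraries for 10 of 34 members and wholly above for 1, where all genes gave 12.1% lower and 10.0% higher. Without KO chow 1 Amacr was called, which was the case in 1 of 21 alternatives. The libraries then left in KO chow are those whose Lct and Fgf15 levels lay apart from WT chow. The summed distal ileum markers of KO chow and WT chow overlapped. Whether the intestinal region bears on the Amacr call was not tested.

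The interaction, the diet response of KO mice minus that of WT mice, tests whether the genotypes respond differently to HFD. None of the 34 members was called by edgeR (smallest adjusted p = 0.58), and over all genes 0.00568% were called. An unadjusted p under 0.05 was found for 8 members and for 1116 of all 17602 genes tested. DESeq2 called 1 member, Acaa1b. By edgeR the interaction of Acaa1b was -2.09 on the log2 scale (SE 0.58, adjusted p = 0.58), that of Acox2 -0.81 (SE 0.27, adjusted p = 0.71) and that of Pex26 0.41 (SE 0.14, adjusted p = 0.71), the 3 members with the smallest p. Values below 0 were found for 14 of 16 oxidation enzymes (87.5%) and 9 of 13 peroxins (69.2%), and for 51.0% of all genes.

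Acox2 was at 17.2, 10.3 and 17.8 CPM in KO HFD and 21.3, 19 and 19.8 CPM in KO chow, and at 22.7, 22.1 and 29.5 CPM in WT HFD and 19.3, 21.9 and 15.3 CPM in WT chow. All KO libraries on HFD were thus below those on chow and all WT libraries on HFD above those on chow. Over all genes 13.1% lay wholly lower on HFD in KO mice and 19.3% wholly higher in WT mice. Genes with both patterns were not counted. Neither diet difference of Acox2 passed by edgeR (log2 fold change -0.41 in KO, SE 0.20, adjusted p = 0.22, and 0.40 in WT, SE 0.19, adjusted p = 0.19). Pex11a was at the other end, with an interaction of -0.01 (SE 0.14). For Hsd17b4, Cat and Scp2 the interaction was -0.51 (SE 0.24), -0.54 (SE 0.21) and -0.33 (SE 0.12), and for Abcd3 -0.18 (SE 0.18).

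Set side by side, oxidation enzymes and peroxins differed most in the libraries of WT HFD. The mean centred log2 CPM of the 16 enzymes minus that of the 13 peroxins was -0.06, -0.13 and 0.11 in KO HFD and 0.38, 0.37 and 0.34 in WT HFD. On chow it was -0.23, -0.20 and -0.17 in KO and -0.14, -0.15 and -0.12 in WT, with an SD of 0.07 within groups. The peroxin mean alone stayed between -0.08 and 0.05 in all 12 libraries, so the differences lay on the side of the enzyme mean. Acaa1b, whose highest library was 31.2 times its lowest against a median of 1.54 over the enzymes, weighs heavily in that mean. These library values were not computed without it. As medians of fold changes, enzymes minus peroxins gave -0.22 for KO against WT on HFD, -0.06 for KO against WT on chow, 0.18 for HFD against chow in WT and 0.01 for HFD against chow in KO.

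Of 20 tested genes for other peroxisomal proteins, 0 rose with HFD in KO mice, 2 fell and 18 did not pass, and in WT mice 6 rose, 2 fell and 12 did not pass. Over all genes 3.44% rose and 4.76% fell in KO mice, and 6.80% rose and 6.57% fell in WT mice, shares that also stand beside the lists below. Ddo, the remaining gene of that list of 21, was too low to test. Ephx2, the soluble epoxide hydrolase, was at 108, 98.5 and 85.0 CPM in WT HFD and 32.7, 35.3 and 34.8 CPM in WT chow (log2 fold change 1.5, SE 0.24, adjusted p = 0.0046 by edgeR). Tmem135, a peroxisomal membrane protein, showed a log2 change of 0.75 (SE 0.12, adjusted p = 0.0014) and Dhrs4, a carbonyl reductase, of 0.73 (SE 0.13, adjusted p = 0.0035). In KO mice Ephx2 showed a diet log2 change of 0.83 (SE 0.24, adjusted p = 0.06), and none of the interactions of these 20 genes was called.

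Of 7 genes for division of the organelle and its tethering to the endoplasmic reticulum, 1 fell with HFD in KO mice (Fis1, a fission factor, log2 fold change -0.31) and 2 rose in WT mice (the tethers Acbd5 and Acbd4, log2 fold change 0.30 and 0.36). These 3 calls were each lost without at least 4 of the 12 libraries, the highest adjusted p being 0.11 for Acbd5 and Fis1 and 0.074 for Acbd4. None of the genes of these lists was called between genotypes on either diet.

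The mitochondrial pathway was compared as the nearest metabolic neighbour. Of 17 genes of mitochondrial beta-oxidation 4 rose and 1 fell with HFD in KO mice (median log2 fold change 0.33), and 11 rose and 1 fell in WT mice (median 0.44). Its transporter gene Slc25a20, the carnitine-acylcarnitine carrier, had diet log2 fold changes of 0.81 (SE 0.13, adjusted p = 0.0039 by edgeR) in KO mice and 0.87 (SE 0.13, adjusted p = 0.0018) in WT mice. Between genotypes on HFD 2 of the 17 fell, Acadvl and Acads (log2 fold change -0.64 and -0.49), where 0.187% of all genes were called lower. Their calls were lost without the same 8 libraries as that of Acaa1b (adjusted p up to 0.18 and 0.22). The median was -0.38, beside -0.31 for the 16 peroxisomal enzymes. On chow the mitochondrial median was -0.27, with KO libraries wholly below WT libraries for 13 of 17 genes. For the peroxisomal enzymes the median was -0.09 and the count 3 of 16, and over all genes 12.1% were wholly below. Whether the lists differ was not tested.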

How the data were processed

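Total RNA of mouse intestine was sequenced in 12 libraries. Per the labels' protocols the kit kept strand. The authors deposited expected counts per gene, estimated and not scaled between libraries, in which 12.3% to 13.2% of values per library were not whole. Per the submitters' processing notes, the tools were STAR, RSEM, Picard and Trimmomatic and the build was mm10. Versions, annotation release and the strand setting of the counting step were not stated there, so genes that overlap on opposite strands and near copies are uncertain. Of 47643 gene IDs, 47224 matched GENCODE vM21, which gave symbols, coordinates and exon lengths, and 18495 genes had no count.

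Expected counts were rounded and tested with edgeR 4.0.16 (TMM factors, filterByExpr defaults, robust quasi-likelihood fit of 4 group means, R 4.3.3), with Benjamini-Hochberg adjustment over 17602 genes, after the test was checked on simulated data. SE was derived from the F statistic. Alternatives were DESeq2 1.42.0 (Wald test, and its size factors in edgeR), other filters, only the groups compared, a replicate block, each library left out, WT chow 1 and KO chow 3 left out together, and smooth muscle or proximal scores as covariates (mean centred log2 of CPM plus 0.5 over limited marker lists). The 5 comparisons were genotype within diet, diet within genotype and their interaction. Replicate numbers did not pair the samples (see the dependence on processing).

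Members, lists and alternatives were chosen with earlier results of these data known. Values in every library are given for members called in a comparison, at most 8, for the 3 with the smallest p where none was called, for Ppara, and for a few further members named for contrast after their values were seen; other lists are named by up to 3 called genes of smallest p, and Fis1, Acbd4, Acbd5 and Acads as small counts. Promoter windows come from RefSeq (GRCm38.p6). Python 3.11.15, pandas 2.3.3 and matplotlib 3.10.9 handled tables and figures.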

Additional observations from a re-analysis of the deposited data

Results flagged for a closer look

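Acox2, which encodes the peroxisomal oxidase of bile acid precursors and branched chains, lay lower on HFD than on chow in every KO library and higher in every WT library. Neither diet difference passed edgeR's test by itself (log2 fold change -0.41 in KO, adjusted p = 0.22, and 0.40 in WT, adjusted p = 0.19). It was at 17.2, 10.3 and 17.8 CPM in KO HFD and 21.3, 19 and 19.8 CPM in KO chow, and at 22.7, 22.1 and 29.5 CPM in WT HFD and 19.3, 21.9 and 15.3 CPM in WT chow. The difference between the diet responses was -0.81 on the log2 scale (SE 0.27) and did not pass edgeR's test over all genes (adjusted p = 0.71). It ran from -0.95 to -0.59 when each library was left out in turn. Over all genes, HFD libraries lay wholly below chow libraries for 13.1% in KO mice and wholly above for 19.3% in WT mice. How many genes show both was not counted, so the pattern cannot be read as particular to Acox2.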

How the results depend on the processing

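The counts of called members and the differences between enzymes and peroxins were compared between settings. Under another setting 194 values stayed within 1.5 times the count or 1 SD of the main value, and 29 moved. That SD (0.07) came from the library values of enzymes minus peroxins, which are means, whereas these differences are medians of fold changes. A count of 0 under both settings was also taken as unchanged, so this tally does not measure how firm the results are. For KO against WT on HFD, 1 member was called in the main analysis, 8 by DESeq2, 3 without a filter (Scp2, Crot and Ech1, with Acaa1b lost at adjusted p = 0.059), 4 with the smooth muscle score, 0 with only the HFD groups, 0 without WT chow 1 and KO chow 3, and 0 to 7 when each library was left out in turn (7 without KO HFD 3, 2 without WT HFD 3, 1 without WT HFD 1, where it was Crot and not Acaa1b, 1 without KO chow 1 or KO chow 2, and 0 without any other). For KO against WT on chow the count was 0 to 1 over the left-out libraries. On all libraries edgeR and DESeq2 called 0, and by edgeR 3 members had an unadjusted p under 0.05, beside 2293 of all 17602 genes. For HFD against chow in KO mice 8 members were called in the main analysis, 4 with only the KO groups, 2 without WT chow 1 and KO chow 3, 5 with the proximal score and 5 to 10 over the left-out libraries (5 without KO HFD 1, KO chow 1 or KO chow 3, and 10 without KO chow 2). DESeq2 called 1 member for the interaction. The shares of all genes called under these other settings are not given here, so the counts cannot be read as particular to the module. Enzymes minus peroxins, with the 7 core genes alone as enzymes, was -0.29 for KO against WT on HFD, 0.44 for HFD against chow in WT and -0.30 for the interaction, and the interaction was -0.15 with all 21 members that are not Pex genes. Over the left-out libraries it ran from -0.33 to -0.20 for KO against WT on HFD and from -0.29 to -0.15 for the interaction.

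Ppara itself, HFD against chow in KO mice, showed a log2 change of 0.10 that ran from -0.15 to 0.31 over the left-out libraries and turned to -0.15 without KO HFD 3, -0.13 without KO chow 1 and -0.05 with the proximal score. For the 29 combinations of gene and comparison followed through all settings, 524 values were on the same side of the threshold, 75 lost the call, 3 gained it and 3, all of Ppara, reversed. Members near 0 outside these also changed sign over the left-out libraries, such as Cat between genotypes on chow (-0.14 to 0.16). The cause of these changes was not tested.

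With the replicate number as a block, 0 members were called for KO against WT on HFD and 7 for HFD against chow in KO mice (Acaa1b lost, adjusted p = 0.074), and the other counts and differences did not move. The deviations of same-numbered libraries correlated at -0.111 to 0.143 over 18 pairs, 3 of them over 0.1, and 4 of 12 libraries correlated best with their own number, so the numbers did not pair the samples. Depth limits Abcd2 (6 to 14 counts) and Acaa1b (21 to 702 counts) most.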
